A study of Mus musculus with 4 samples.

Results

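Rab GTPases are small proteins of the Ras superfamily that switch between a GTP-bound, membrane-attached form and a GDP-bound form, and each marks a particular membrane compartment and recruits the effectors that move, tether and fuse its vesicles. Guanine nucleotide exchange factors (GEFs) switch them on, GTPase-activating proteins (GAPs) switch them off, and GDP dissociation inhibitors and prenylation factors carry them to and from membranes. In macrophages they order the uptake and ripening of phagosomes, the recycling of receptors, the secretion of cytokines and the delivery of cargo to lysosomes. The genes described here were those whose name, as the value tables give it, is Rab followed by a number and at most a letter and a further digit: 51 of 26614 gene names, holding 174 of 80929 regions of open chromatin. By the known site of action of their proteins, 15 were grouped as endosomal, 17 as secretory (endoplasmic reticulum, Golgi and exocytosis), 13 as lysosome-related and the remaining 6 as other. The rule for members used names only and no measured value, although it was chosen with earlier results of these data known.

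RAW264.7 cells, an established mouse macrophage-like line, were profiled 48 h after treatment by ATAC-seq, an assay whose transposase cuts and tags DNA that is not packed away. There were 2 libraries titled CuNZ@Gel and 2 titled Gel. The design text calls the treatments hydrogels and the series title speaks of a nanozyme hydrogel, but the labels do not say what CuNZ stands for or what the Gel material holds; cell line, plate format and time were shared by both groups. The treatment text is shared by all 4 samples and names CuNZ@Gel alone, so that the Gel group rests on the titles. Nothing in the labels says that replicates were separate cultures, so the spread behind each p-value is that among these 4 libraries and may be technical.

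Reads in regions numbered 7440949 and 10236702 in CuNZ@Gel, against 18843505 and 17914682 in Gel. The background pileup implied by the peak caller's folds was 1.168 and 1.20 in CuNZ@Gel and 1.00 and 0.962 in Gel. Reads in regions per unit of background were thus lower in both CuNZ@Gel libraries, and this difference and the treatment cannot be told apart. Of 10 macrophage markers all had reads, with a summed level of 1054 to 1063 RPM in CuNZ@Gel and 1321 to 1326 RPM in Gel. Fibroblast markers with reads (3 of 5; Col1a2 and Thy1 have no region) summed to 41.9 to 43.8 RPM in CuNZ@Gel and 38.7 to 40.4 RPM in Gel. Epithelial markers with reads (3 of 4; Krt18 has no region) summed to 12.4 to 17.5 RPM in CuNZ@Gel and 12.1 to 12.9 RPM in Gel. The part of these markers in the results was not tested. RPM, used throughout, is reads per 1000000 effective reads, which are the reads in regions times the authors' scaling factor. A gene's level is the sum over all regions the authors assigned to it as the nearest gene.

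Chromatin near most Rab genes was less accessible in CuNZ@Gel than in Gel on the deposited scale. Of the 51 members, all of which passed the filter on low reads, 27 fell, 9 rose and 15 were not called at a limma adjusted p under 0.05, with a median log2 change of -0.26. Rab3c, counted among the rises, passed that filter only through its CuNZ@Gel libraries. Over all 25900 genes tested 36.1% were called lower and 20.5% higher, with a median of -0.10. The largest falls were near Rab11b, Rab8a and Rab5a, and the largest rise near Rab15. The 2 CuNZ@Gel values lay wholly above or wholly below the 2 Gel values in 42 of the 51 members; 76.9% of all genes tested showed such a separation. Fewer open sites in every cell and fewer cells with the site open cannot be told apart in these bulk samples. Leaving out each library in turn gave member medians of -0.31 to -0.21, against -0.12 to -0.097 over all genes. Fewer rises and fewer falls were called in each of these fits, for the members and over all genes alike. Most member rises lost their call without Gel replicate 1. Counts of calls from these fits are not read as results about the members.

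**Figure D1:**
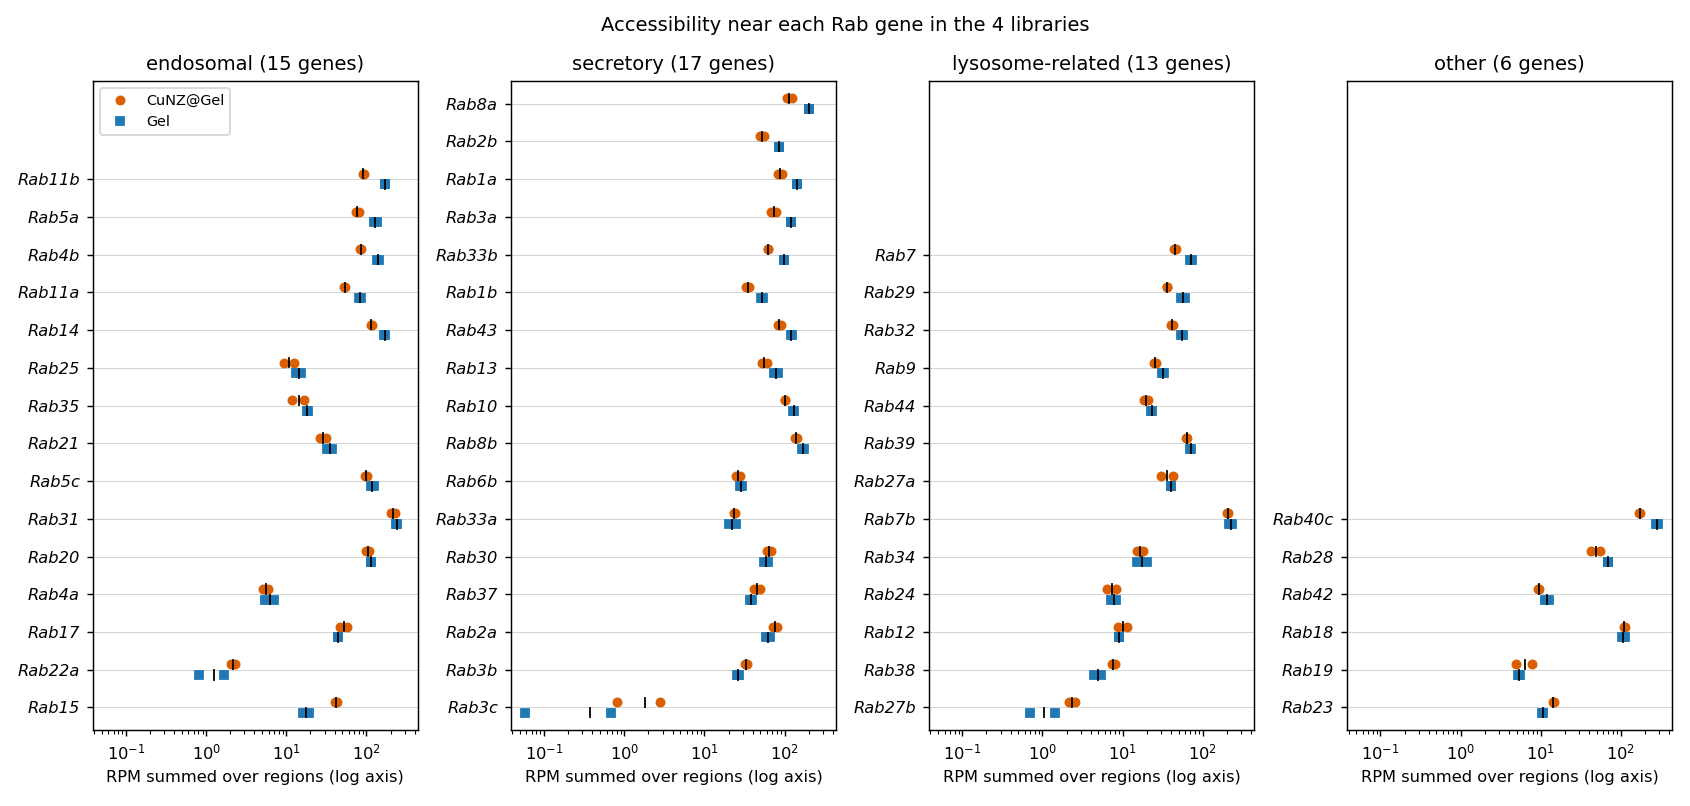
Summed RPM (log axis) of each of the 51 Rab genes in the 2 CuNZ@Gel libraries (circles) and the 2 Gel libraries (squares), with a black bar at each group's mean, by role and, within a role, in order of the fitted change from the largest fall at the top. In the upper rows of the endosomal, secretory and lysosome-related panels both circles lie left of both squares, while Rab15 has both circles right of both squares.

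Promoters of 4 members on which the results turn are shown because they span the range of responses: Rab5a and Rab8a, among the largest falls, Rab7, which fell under every scaling tried, and Rab15, which rose most among well-covered members. Each is the 250 bases upstream of 1 annotated start in RefSeq (build GRCm38.p6), written 5′ to 3′ on the gene's strand. Rab15 has 4 starts listed and Rab7 has 2, so that other promoters of these genes are not shown. Rab5a and Rab8a have 1 each. Capitals mark any match to the GC box GGGCGG, the CCAAT box CCAAT, the E-box CACGTG, the AP-1 element TGACTCA or the cAMP response element TGACGTCA on either strand. The windows lie at chr17:53478984-53479233 (plus strand), chr8:72160950-72161199 (plus strand), chr6:88045271-88045520 (minus strand) and chr12:76822525-76822774 (minus strand), and were not placed against the regions, whose build is GRCm39.
Rab5a: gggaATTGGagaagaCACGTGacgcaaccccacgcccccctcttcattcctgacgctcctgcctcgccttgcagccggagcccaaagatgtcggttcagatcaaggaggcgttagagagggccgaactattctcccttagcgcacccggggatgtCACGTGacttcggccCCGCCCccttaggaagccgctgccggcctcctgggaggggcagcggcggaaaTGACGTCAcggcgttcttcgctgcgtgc
Rab8a: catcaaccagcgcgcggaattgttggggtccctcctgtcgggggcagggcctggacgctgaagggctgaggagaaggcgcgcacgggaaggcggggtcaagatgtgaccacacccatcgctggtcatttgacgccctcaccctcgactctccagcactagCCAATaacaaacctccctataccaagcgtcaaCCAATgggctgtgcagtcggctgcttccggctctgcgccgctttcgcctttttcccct
Rab7: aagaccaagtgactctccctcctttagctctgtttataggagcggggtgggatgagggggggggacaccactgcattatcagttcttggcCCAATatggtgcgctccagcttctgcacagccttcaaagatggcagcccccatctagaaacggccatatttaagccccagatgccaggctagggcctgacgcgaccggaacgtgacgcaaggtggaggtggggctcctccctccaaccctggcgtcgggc
Rab15: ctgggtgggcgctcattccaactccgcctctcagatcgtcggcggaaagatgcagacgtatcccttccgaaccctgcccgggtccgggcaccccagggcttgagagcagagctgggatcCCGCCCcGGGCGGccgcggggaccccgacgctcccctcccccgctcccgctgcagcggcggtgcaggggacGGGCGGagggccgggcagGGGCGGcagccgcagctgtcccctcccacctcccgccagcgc

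The Rab5a window holds a CCAAT box, 2 E-boxes, a GC box and a cAMP response element, the Rab8a window 2 CCAAT boxes, the Rab7 window 1 CCAAT box and the Rab15 window 4 GC boxes. RefSeq windows were at hand for 42 of the 51 members, 54 windows in all. A GC box was found in 66.7% of these and in 32.7% of all 32851 windows, and the median number of CG dinucleotides was 15 in member windows and 6 in all. The CCAAT box was present in 37% of member windows against 33.8% of all, and the E-box in 9.26% against 6.02%. The AP-1 element was present in 3.70% of member windows against 4.46% of all, and the cAMP response element in 3.70% against 1.55%. No motif contains the letters of another, although neighbouring matches can share bases, and a match describes the letters of the window, not a bound site.

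The change depended on how accessible a gene's regions were, for all genes and for Rab genes alike. The level used here counts reads over regions of any width and is not per base. Members were mostly high on it: their median level was 5.61 on the log2(RPM + 1) scale against 4.41 over all genes, and 15 of the 51 lay in the top decile of genes by level. In that decile 14 of the 15 members fell and none rose, with a median of -0.49. Over all genes of that level 81% were called lower and 5.98% higher, with a median of -0.44. Below the median level, 1 of 13 members fell and 4 rose, with a median of 0.14 against 0.17 for all genes there, of which 8.76% were called lower and 28.9% higher. Removing the trend of change with level over genes left 13 members higher and 16 lower, where 24.2% of all genes were higher and 22.8% lower. Removing it over regions before summing, which leaves 50 members tested, left 11 higher and 4 lower, where 20.5% of all genes were higher and 16.4% lower. In both trend-removed fits 3 members were called lower, Rab7, Rab29 and Rab3a, and 10 were called higher. Scaling to totals of reads in regions gave 14 members higher and 15 lower (all genes 34.3% and 18.7%). Scaling to the background pileup gave none higher and 46 lower (all genes 2.77% and 75.5%). That last scaling moved the median of all genes to -1.06, against -1.28 for the members, so directions given here are relative to the deposited scale.

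**Figure D2:**
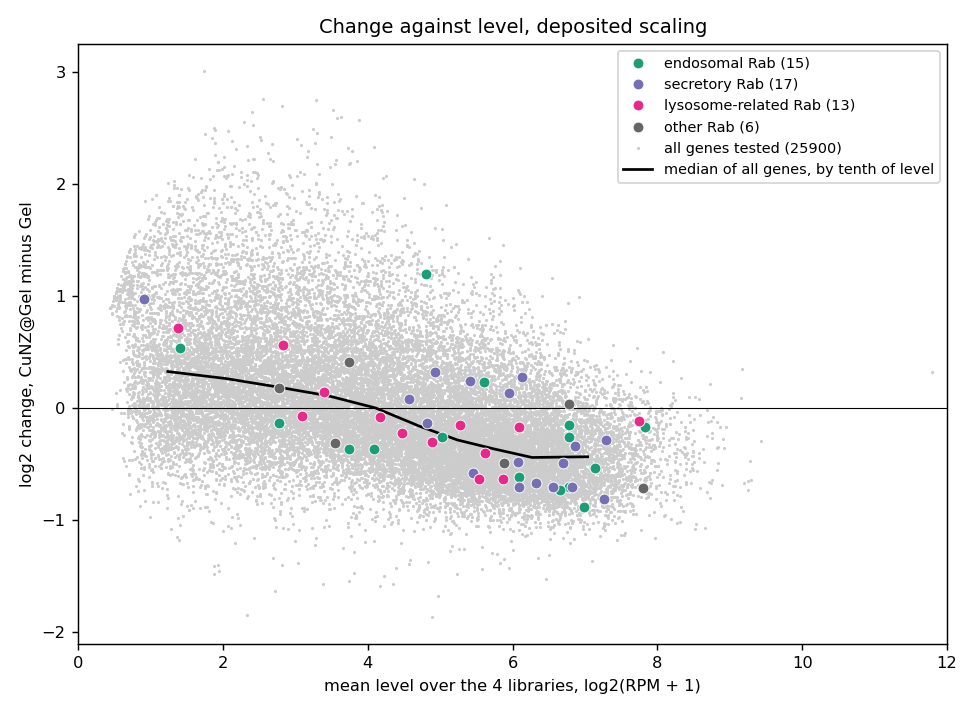
Log2 change (CuNZ@Gel minus Gel, deposited scale) against mean level over the 4 libraries for Rab genes, coloured by role, and for all 25900 genes tested (grey); the black line joins the medians of all genes in deciles of level. High Rab genes lie on both sides of the line, which runs from 0.32 in the lowest decile to -0.44 in the highest, and Rab15 stands above it.

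Among the 15 endosomal Rab genes, 10 fell, 2 rose and 3 were not called, with a median of -0.26. Over all genes tested 36.1% were lower and 20.5% higher. Rab11b and Rab11a direct traffic through the recycling endosome. Rab11b had 92.2 and 91.4 RPM in CuNZ@Gel, against 170.5 and 170.1 RPM in Gel, and fell by 0.88 ± 0.055 log2 units (SE; limma adjusted p = 1.55e-10). Rab11a had 54.7 and 52.8 RPM in CuNZ@Gel, against 80.9 and 85.6 RPM in Gel, and fell by 0.62 ± 0.073 log2 units (SE; limma adjusted p = 5.56e-07). In both genes the libraries of each group stood close together and apart from the other group. Rab5a, whose protein drives fusion of early endosomes and of new phagosomes with them, had 73.7 and 80.1 RPM in CuNZ@Gel, against 123 and 134 RPM in Gel, and fell by 0.73 ± 0.066 log2 units (SE; limma adjusted p = 1.82e-08). Rab5c, its paralogue with the same compartment, had 95.7 and 103 RPM in CuNZ@Gel, against 123 and 114 RPM in Gel, and fell by 0.26 ± 0.063 log2 units (SE; limma adjusted p = 0.00156). Rab4b, of the fast recycling route, had 83.2 and 86.3 RPM in CuNZ@Gel, against 144 and 135 RPM in Gel, and fell by 0.71 ± 0.061 log2 units (SE; limma adjusted p = 8.54e-09). All of these had both CuNZ@Gel values below both Gel values.

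Rab14, which acts between endosomes and the Golgi and keeps young phagosomes from maturing, had 117 and 114 RPM in CuNZ@Gel, against 169.8 and 167 RPM in Gel, and fell by 0.54 ± 0.053 log2 units (SE; limma adjusted p = 4.82e-08). Rab20, a regulator of phagosome maturation in macrophages, had 98.2 and 108 RPM in CuNZ@Gel, against 115 and 115 RPM in Gel, and fell by 0.16 ± 0.062 log2 units (SE; limma adjusted p = 0.0386). Rab31, which carries cargo from the Golgi to endosomes, had 201 and 224 RPM in CuNZ@Gel, against 236 and 243 RPM in Gel, and fell by 0.17 ± 0.050 log2 units (SE; limma adjusted p = 0.00629). The Rab20 and Rab31 falls were small against those of Rab11b and Rab5a, and both turned into called rises once the level trend was removed, at 0.26 and 0.30 over genes and 0.28 and 0.13 over regions. Rab5c also changed sign there, to 0.15 over genes and 0.13 over regions, as did Rab4b over regions (0.059). Removal over regions put Rab5a at -0.10, Rab11a at -0.011 and Rab11b at -0.068, none of them called, whereas over genes all 3 stayed lower (-0.33, -0.26 and -0.46). Rab14 was called lower over regions (-0.19) and not over genes (-0.10).

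Rab15, which in neurons and other cells restrains early endocytosis and works at recycling endosomes, was the one endosomal member with a large rise. It had 42.3 and 40.1 RPM in CuNZ@Gel, against 18.9 and 16.1 RPM in Gel, and rose by 1.19 ± 0.11 log2 units (SE; limma adjusted p = 3.18e-08), with both CuNZ@Gel values well above either Gel value. The rise held with the trend removed over genes (1.33) and over regions (1.23), and was 0.17 and not called (adjusted p = 0.532) on the background scale. Rab17, best known from apical recycling in epithelia, had 57.2 and 46.4 RPM in CuNZ@Gel, against 43.6 and 43.8 RPM in Gel, and rose by 0.23 ± 0.10 log2 units (SE; limma adjusted p = 0.0450). Its call was lost without CuNZ@Gel replicate 1 (0.084), Gel replicate 1 (0.23) or Gel replicate 2 (0.23), and without CuNZ@Gel replicate 2 the change was 0.38. Removal of the trend gave 0.53 over genes and 0.55 over regions, both called, and the background scale -0.80. The Rab20 fall was lost without CuNZ@Gel replicate 1 (-0.088), without Gel replicate 1 (-0.16) and without Gel replicate 2 (-0.15), and the Rab31 fall without CuNZ@Gel replicate 1 (-0.094) and without Gel replicate 2 (-0.15). Without Gel replicate 2 6 endosomal members were called lower in place of 10.

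Of the 17 secretory Rab genes, 10 fell, 4 rose and 3 were not called, where 36.1% of all genes were lower and 20.5% higher. Their median was -0.34, the lowest of the role lists on the deposited scale. Rab8a, which takes vesicles from the Golgi and recycling endosomes to the plasma membrane and sits on macrophage ruffles, had 107 and 122 RPM in CuNZ@Gel, against 202 and 200.5 RPM in Gel, and fell by 0.81 ± 0.059 log2 units (SE; limma adjusted p = 1.21e-09). Rab1a, needed for transport from the endoplasmic reticulum to the Golgi, had 91.6 and 82.9 RPM in CuNZ@Gel, against 141 and 144 RPM in Gel, and fell by 0.70 ± 0.062 log2 units (SE; limma adjusted p = 1.29e-08). Rab2b, a Golgi Rab, had 49.4 and 55.4 RPM in CuNZ@Gel, against 85.9 and 86.4 RPM in Gel, and fell by 0.71 ± 0.076 log2 units (SE; limma adjusted p = 1.69e-07). These 3 genes were the largest secretory falls, and in each the CuNZ@Gel libraries lay well below both Gel libraries. Rab10, of post-Golgi and GLUT4 vesicle traffic, had 102 and 103 RPM in CuNZ@Gel, against 132 and 128 RPM in Gel, and fell by 0.34 ± 0.057 log2 units (SE; limma adjusted p = 3.75e-05). Its sign turned to 0.075 over genes and 0.049 over regions with the trend removed, neither called. Once the trend was removed over genes, Rab8a, Rab1a and Rab2b stayed lower, at -0.37, -0.29 and -0.35. Over regions they were -0.11, 0.0053 and -0.10, none of them called.

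The secretory rises were Rab2a, Rab3b, Rab3c and Rab37, of which the 3 largest are given here. Rab2a, which works between the endoplasmic reticulum and the Golgi and in delivery to lysosomes, had 71.7 and 80.1 RPM in CuNZ@Gel, against 59.5 and 65.6 RPM in Gel, and rose by 0.28 ± 0.078 log2 units (SE; limma adjusted p = 0.00543). Rab3b, a regulated-exocytosis Rab, had 33.7 and 32.5 RPM in CuNZ@Gel, against 25.7 and 26.9 RPM in Gel, and rose by 0.32 ± 0.10 log2 units (SE; limma adjusted p = 0.0115). Both had all CuNZ@Gel values above all Gel values, and both were higher in the 2 trend-removed fits, at 0.64 and 0.45 for Rab2a and 0.49 and 0.27 for Rab3b. Both were lower on the background scale (-0.77 and -0.70). The Rab2a call was lost without CuNZ@Gel replicate 2 (0.20) and without Gel replicate 1 (0.21), and the Rab3b call without Gel replicate 1 (0.29). Rab3c, an exocytosis Rab of neurons and endocrine cells, rested on 23 and 9 reads in the CuNZ@Gel libraries against 1 and 11 reads in the Gel libraries. Rab3c passed the filter on low reads only through the CuNZ@Gel libraries, where it is higher, so its call is no support for a rise. Its scaled ratio of pooled reads was 4.55 (exact 95% interval 2.28 to 9.71, counting error only). Its fitted change of 0.97 ± 0.38 (SE; limma adjusted p = 0.0368) was lost without CuNZ@Gel replicate 1 (0.43) and without Gel replicate 1 (0.64), was 1.51 without CuNZ@Gel replicate 2, and was not called with no filter (adjusted p = 0.0506). No secretory member was called higher without Gel replicate 1, and 2 were without CuNZ@Gel replicate 1.

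In the lysosome-related list of 13 genes, 5 fell, 2 rose and 6 were not called, with a median of -0.15. These counts lay near the shares over all genes tested, 36.1% lower and 20.5% higher, with a median of -0.10. Rab7, whose protein takes late endosomes and phagosomes to fusion with lysosomes, had 44.1 and 47 RPM in CuNZ@Gel, against 73.1 and 69.8 RPM in Gel, and fell by 0.64 ± 0.079 log2 units (SE; limma adjusted p = 1.01e-06). Rab29, a Golgi and lysosome Rab that recruits the kinase LRRK2, had 36.3 and 36 RPM in CuNZ@Gel, against 53.2 and 60.2 RPM in Gel, and fell by 0.63 ± 0.089 log2 units (SE; limma adjusted p = 5.28e-06). Rab32, which builds lysosome-related organelles and limits intracellular bacteria, had 40.4 and 42.7 RPM in CuNZ@Gel, against 57.5 and 53 RPM in Gel, and fell by 0.40 ± 0.086 log2 units (SE; limma adjusted p = 0.000465). Rab9, of the route from late endosomes to the Golgi, had 25 and 26.4 RPM in CuNZ@Gel, against 32.6 and 31.4 RPM in Gel, and fell by 0.31 ± 0.10 log2 units (SE; limma adjusted p = 0.0165). The groups did not overlap in any of these 4 genes. Rab7 and Rab29 were lower in every scaling tried: with the trend removed they stood at -0.30 and -0.34 over genes and at -0.43 and -0.24 over regions, all called, and with totals at -0.36 and -0.35. Rab32 was -0.10 and -0.0048 in these fits and Rab9 -0.15 and 0.029, none of them called. The Rab9 call was also lost without CuNZ@Gel replicate 1 (-0.27), without Gel replicate 1 (-0.28) and without Gel replicate 2 (-0.33). Without Gel replicate 2 3 lysosome-related members were called lower in place of 5, and none was called higher without that library or without CuNZ@Gel replicate 1.

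Rab38, the partner of Rab32 in lysosome-related organelles, had 8.002 and 7.29 RPM in CuNZ@Gel, against 5.37 and 4.40 RPM in Gel, and rose by 0.56 ± 0.20 log2 units (SE; limma adjusted p = 0.0204). Rab27b, of secretory lysosomes and exosome release, had 2.55 and 2.13 RPM in CuNZ@Gel, against 0.699 and 1.42 RPM in Gel, and rose by 0.72 ± 0.30 log2 units (SE; limma adjusted p = 0.0475). Both are low, and the CuNZ@Gel values lay above the Gel values in each. Neither was called with the trend removed (0.37 and 0.37 over genes, 0.24 and 0.42 over regions), and on the background scale Rab38 was -0.35. The Rab38 call was lost without CuNZ@Gel replicate 1 (0.50) and without Gel replicate 2 (0.44), and the Rab27b call without CuNZ@Gel replicate 1 (0.63), without Gel replicate 1 (0.46), without Gel replicate 2 (0.97) and with no filter (adjusted p = 0.0627). Rab27a, which docks secretory lysosomes and granules at the plasma membrane, had 42.4 and 29.9 RPM in CuNZ@Gel, against 39.8 and 39.7 RPM in Gel, with overlapping groups and a change of -0.15 (95% interval -0.41 to 0.10; limma adjusted p = 0.299). Rab27a was called lower when scaled to the background pileup (-1.18). Its change was -0.40 with CuNZ@Gel replicate 1 left out and 0.092 with CuNZ@Gel replicate 2 left out.

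Of the 6 remaining Rab genes, 2 fell, 1 rose and 3 were not called, with a median of -0.14. These few counts also lay near the shares over all genes, 36.1% lower and 20.5% higher. Rab40c, an atypical Rab whose SOCS box joins it to a ubiquitin ligase, had 169 and 175 RPM in CuNZ@Gel, against 278 and 288 RPM in Gel, and fell by 0.71 ± 0.044 log2 units (SE; limma adjusted p = 1.62e-10). It was -0.24 with the trend removed over genes and 0.089 over regions, where the sign turned without a call. Rab28, of ciliary and photoreceptor traffic, had 42.9 and 55.4 RPM in CuNZ@Gel, against 68.8 and 69.2 RPM in Gel, and fell by 0.49 ± 0.10 log2 units (SE; limma adjusted p = 0.000190). Without CuNZ@Gel replicate 1 Rab28 was -0.31, and with the trend removed it was -0.16 over genes and -0.14 over regions, neither called. Rab23, which holds back Hedgehog signalling, had 14.6 and 14.2 RPM in CuNZ@Gel, against 10.7 and 10.4 RPM in Gel, and rose by 0.41 ± 0.15 log2 units (SE; limma adjusted p = 0.0226). The Rab23 call was lost without CuNZ@Gel replicate 1 (0.40), without Gel replicate 1 (0.43) and without Gel replicate 2 (0.39). Rab23 was 0.33 and not called with the trend removed over genes, 0.48 and called over regions, and lower on the background scale (-0.57).

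**Figure D3:**
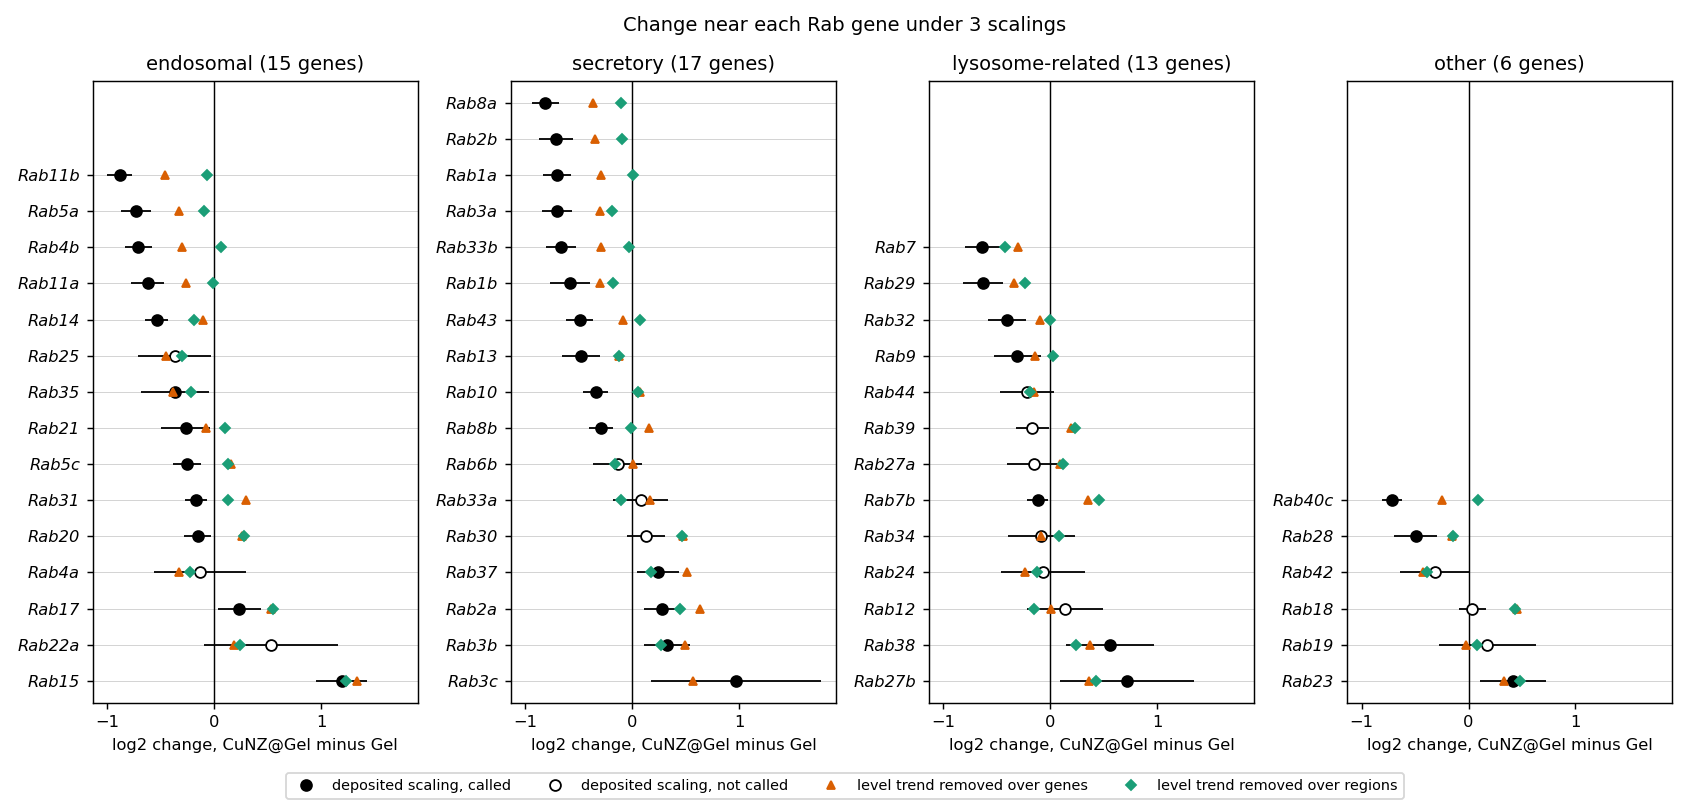
Log2 change (CuNZ@Gel minus Gel) of each Rab gene by role: black circles give the deposited scale with the 95% interval, filled where called, and triangles and diamonds the values with the level trend removed over genes and over regions. Most black circles on the left move toward 0 under both removals. Several genes stay left of 0 in both, of which Rab7, Rab29 and Rab3a were called lower in each. Rab15 stays at the far right.

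Across the role lists, the medians on the deposited scale were -0.26 for endosomal, -0.34 for secretory and -0.15 for lysosome-related members, and no test between lists was made. Endosomal and secretory members had median levels of 6.08 and 6.09 on the log2(RPM + 1) scale, and lysosome-related members 4.89, so the lists also differ in level. Removing the trend over genes gave medians of -0.10, 0.0090 and -0.085, and over regions 0.059, -0.018 and 0.029, in the same order of lists, so the order of the lists did not hold. With the trend removed over regions 4 endosomal, 3 secretory and 2 lysosome-related members were higher, and 1, 1 and 2 were lower, where 20.5% of all genes were higher and 16.4% lower. Moving Rab27a, Rab27b, Rab34, Rab39 and Rab44 to the secretory list gave medians of -0.20 for secretory and -0.21 for lysosome-related members.

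**Figure D4:**
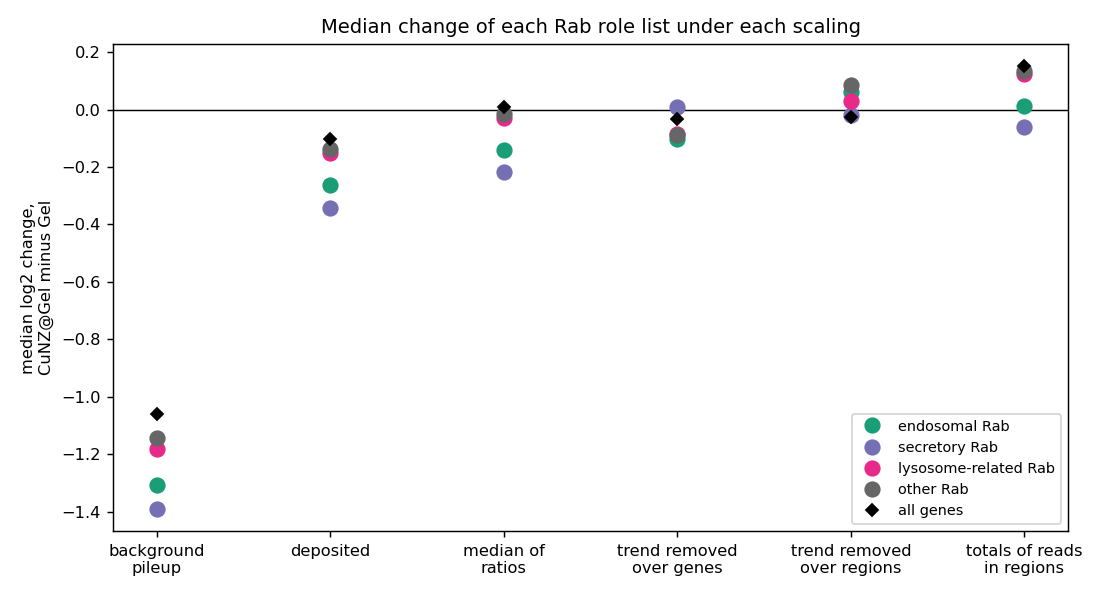
Median log2 change (CuNZ@Gel minus Gel) of each role list of Rab genes, and of all genes tested, under 6 scalings of the same libraries. The background scale lowers every list and all genes together, to between -1.39 and -1.06, and the order of the lists differs between scalings.

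Paralogues with closely related proteins were set side by side, a comparison chosen after their values were seen and made without a test of the differences. Rab7 fell to 45.6 ± 2.03 RPM in CuNZ@Gel, against 71.5 ± 2.36 RPM in Gel (mean ± SD, n = 2 each). Rab7b, a late endosome Rab that in macrophages lowers Toll-like receptor signalling, averaged 205 ± 2.97 RPM in CuNZ@Gel and 223 ± 10.8 RPM in Gel. The Rab7b change was -0.12 ± 0.047 (SE; limma adjusted p = 0.0339) on the deposited scale, and its call was lost without CuNZ@Gel replicate 2 (-0.11) and without Gel replicate 2 (-0.071). Rab7b with the trend removed was 0.35 over genes and 0.45 over regions, called higher in both, while Rab7 was called lower in both. Rab2b fell while Rab2a rose, and with the trend removed over genes they were -0.35 and 0.64, both called. Over regions Rab2b was -0.10 and not called, and Rab2a 0.45 and called higher. The Rab2a region with the most RPM fell on the deposited scale (-0.62). Rab3a, of neuronal and endocrine exocytosis, changed by -0.70 ± 0.069 (SE; limma adjusted p = 4.93e-08), against the rise of Rab3b given above. Rab3a stayed lower with the trend removed over genes (-0.31) and regions (-0.19). Rab8b changed by -0.29 ± 0.053 (SE; limma adjusted p = 9.26e-05), against -0.81 for Rab8a. With the trend removed over genes Rab8b was 0.15 and called higher, and Rab8a -0.37 and called lower, but over regions they were -0.0077 and -0.11, neither called. Rab4a, of the fast recycling route, had 5.09 and 5.95 RPM in CuNZ@Gel, against 5.42 and 6.93 RPM in Gel, with overlapping groups and a change of -0.13 (95% interval -0.56 to 0.29; limma adjusted p = 0.607), against -0.71 for Rab4b. Trend removal over genes put Rab4a at -0.33 and Rab4b at -0.30, and over regions -0.23 and 0.059, so Rab4b was no longer the lower of the pair. Rab1a and Rab1b both fell, by 0.70 and 0.58, as did Rab11a and Rab11b, and with the trend removed over regions Rab1a and Rab1b were 0.0053 and -0.18, neither called.

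Single regions of a Rab gene could move in opposite directions. Of the 174 Rab regions 171 were tested, and 38 rose and 45 fell, where 21.2% of all regions were called higher and 21.9% lower. The region with the most RPM of each gene, averaged over the 4 libraries and called its strongest region here, was mostly lower in CuNZ@Gel: of 50 such regions 32 fell and 5 rose, with a median of -0.48. Among such regions of all genes 40.2% were called lower and 15.7% higher, with a median of -0.22. The other 121 Rab regions were mostly not called, and 33 rose and 13 fell, with a median of 0.084. Among the other regions of all genes 23.9% were called higher and 12.6% lower, with a median of 0.087. For totals of reads in regions 50 Rab regions were higher and 26 lower (all regions 30% and 11.9%), and on the background scale 8 were higher and 110 lower (all regions 4.85% and 60.6%). The strongest region was chosen by its level, with which change moved over all regions. After removal of the trend 6 strongest regions were higher and 3 lower (all genes 18.3% and 16.2%), and 33 other regions were higher and 16 lower (all genes 19% and 12.6%). Fewer regions were called higher without Gel replicate 1, among Rab regions and over all regions alike. The median change in that fit was -0.083 for Rab regions and -0.012 over all regions. In 17 of the 36 members with more than 1 region, 1 region was called higher and another lower, against 23.4% of all genes with more than 1 region. With the trend removed this held in 9 of the 36, against 15.7% of such genes. The 36 members had a median of 3 regions and all such genes 3, a value not given for the members with opposite calls alone. Rab genes also had a higher median level than all genes (5.61 against 4.41). The part of region number and level in these counts was not tested. The strongest region held 19.4% to 98.5% of the member's RPM (median 65.3%).

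**Figure D5:**
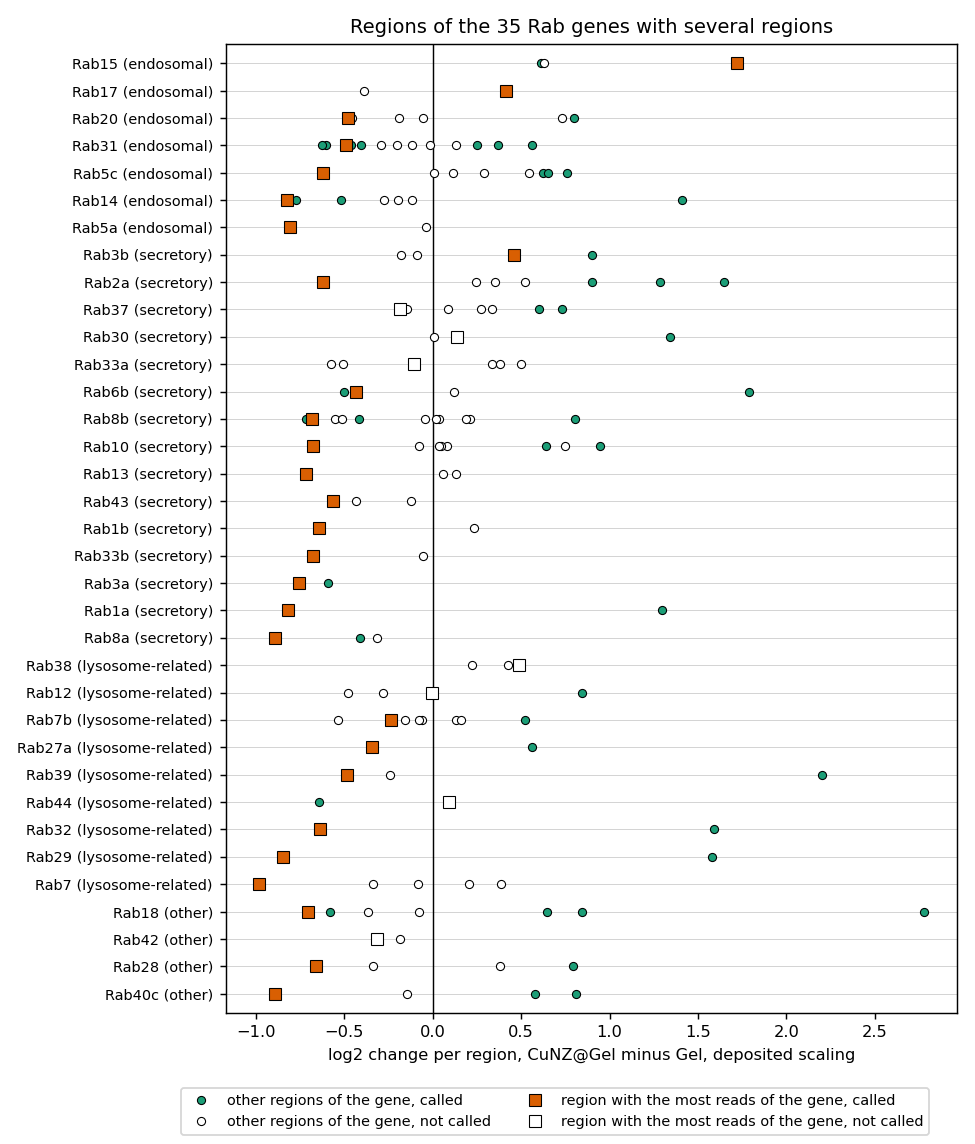
Log2 change (CuNZ@Gel minus Gel, deposited scale) of each tested region, by nearest Rab gene, for the 35 genes with several regions of which any was tested: squares mark the region with the most RPM, circles the others, and filled symbols are called. Filled squares lie mostly left of 0, and the filled circles to the far right belong to Rab18, Rab39 and Rab6b.

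The largest rise of any Rab region was at chr18:6700623-6701590 (GRCm39, 968 bases), nearest to Rab18, a Rab of lipid droplets and the endoplasmic reticulum. It had 42.3 and 40.8 RPM in CuNZ@Gel, against 4.78 and 5.63 RPM in Gel, a change of 2.78 ± 0.14 (SE; limma adjusted p = 3.27e-21), and was 2.91 with the trend removed and 1.81 on the background scale, both called. All 4 libraries had a peak there, with the authors' fold enrichments of 10.4 and 10.5 in CuNZ@Gel and 8.02 and 6.60 in Gel. The strongest Rab18 region, chr18:6764724-6765550, changed by -0.71 ± 0.080 (SE; limma adjusted p = 2.40e-10) and by -0.088 with the trend removed, which was not called. The sum over the 7 Rab18 regions changed by 0.037 (95% interval -0.090 to 0.16; limma adjusted p = 0.636) on the deposited scale, but was called higher with the trend removed over genes (0.45) and over regions (0.43) and with totals (0.32), and lower on the background scale (-1.01). The next rise was at chr9:53607092-53607637, nearest to Rab39, whose protein acts in late endosomes, phagosomes and autophagy. It had 12 and 14 RPM in CuNZ@Gel, against 2.63 and 1.55 RPM in Gel, a change of 2.203 ± 0.21 (SE; limma adjusted p = 3.07e-12). Peaks there were called in both CuNZ@Gel libraries and in neither Gel library. The strongest Rab39 region, chr9:53617118-53618029, changed by -0.48 ± 0.090 (SE; limma adjusted p = 1.40e-05) and was 0.044 and not called with the trend removed. The Rab39 sum changed by -0.17 (95% interval -0.32 to -0.017; limma adjusted p = 0.0545), and with the trend removed it was called higher over genes (0.19) and over regions (0.23). The third was at chr9:102950166-102950548, nearest to Rab6b, of Golgi retrograde traffic, with 4.61 and 6.22 RPM in CuNZ@Gel, against 0.699 and 0.990 RPM in Gel and a change of 1.79 ± 0.27 (SE; limma adjusted p = 2.40e-07), where CuNZ@Gel replicate 2 alone had a peak. The strongest Rab6b region, chr9:103026102-103026925, changed by -0.43 ± 0.15 (SE; limma adjusted p = 0.0186), a call lost with the trend removed (-0.35) and without CuNZ@Gel replicate 2 (-0.26), Gel replicate 1 (-0.46) or Gel replicate 2 (-0.41). The Rab39 and Rab6b rises were also called with the trend removed (2.10 and 1.58) and on the background scale (1.35 and 1.10).

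The 3 largest falls were all in the strongest region of their gene and had peaks in all 4 libraries. The Rab7 region at chr6:88021852-88022564 (713 bases) had 24.4 and 23.9 RPM in CuNZ@Gel, against 48.5 and 48.9 RPM in Gel, a change of -0.98 ± 0.10 (SE; limma adjusted p = 2.51e-11), and the authors' fold enrichments were 9.92 and 9.72 in CuNZ@Gel and 16.3 and 16.1 in Gel. The other 4 Rab7 regions lay between -0.34 and 0.39, none of them called. The Rab40c region at chr17:26138677-26139588 (912 bases) had 126 and 136 RPM in CuNZ@Gel, against 242 and 247 RPM in Gel, a change of -0.90 ± 0.055 (SE; limma adjusted p = 1.94e-18). The Rab8a region at chr8:72914472-72915495 (1024 bases) had 85.9 and 100.2 RPM in CuNZ@Gel, against 173 and 174 RPM in Gel, a change of -0.90 ± 0.065 (SE; limma adjusted p = 5.30e-16). The Rab7 region, with the trend removed, stayed lower (-0.59, limma adjusted p = 1.89e-06), while the Rab40c region was 0.037 and the Rab8a region -0.074, neither called.

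A further group of regions, named after their values were seen, includes regions of Rab15 and Rab2a. The strongest Rab15 region, chr12:76851708-76852658 (951 bases), had 24.4 and 21.3 RPM in CuNZ@Gel, against 6.18 and 6.25 RPM in Gel, a change of 1.72 ± 0.15 (SE; limma adjusted p = 3.36e-13). A second Rab15 region, chr12:76860225-76860831, changed by 0.61 ± 0.15 (SE; limma adjusted p = 0.000971), a call lost without Gel replicate 2 (0.47), and was -0.37 on the background scale. For Rab2a the region at chr4:8589092-8590244 (1153 bases) had 26.1 and 28.3 RPM in CuNZ@Gel, against 8.57 and 7.43 RPM in Gel, a change of 1.65 ± 0.14 (SE; limma adjusted p = 1.23e-13). The strongest Rab2a region, chr4:8535094-8536532, had 24.2 and 28.3 RPM in CuNZ@Gel against 37.1 and 44.9 RPM in Gel, a change of -0.62 ± 0.11 (SE; limma adjusted p = 6.35e-06). This fall went against the gene's sum on the deposited scale, and with the trend removed it was -0.24 and not called. Regions that rose near genes whose sum fell included chr2:35093932-35094139 near Rab14 (1.41), chr10:10431079-10431436 near Rab32 (1.59), chr1:131807626-131807953 near Rab29 (1.58) and chr11:20164599-20165535 near Rab1a (1.29), each called on the deposited scale and with the trend removed. The Rab14 and Rab1a regions were 0.52 and 0.42 when scaled to the background pileup, neither called. The Rab29 region was 1.01 without CuNZ@Gel replicate 2, the one library with a peak there. At the Rab14 and Rab32 regions both CuNZ@Gel libraries and neither Gel library had a peak. Where these regions lie relative to promoters, exons and introns was not analysed here.

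Peaks were called by the authors in each library alone. Of the 174 Rab regions 89 (51.1%) had a peak in all 4 libraries, against 39.6% of all 80929 regions. Only 3 (1.72%) had peaks in both CuNZ@Gel libraries and no Gel library, those near Rab14, Rab32 and Rab39, against 2.28% of all regions. In the opposite class, with peaks in both Gel libraries and no CuNZ@Gel library, there were 9 (5.17%), against 11% of all regions. Peak numbers differed between libraries, at 42612 and 53273 in CuNZ@Gel and 61757 and 59251 in Gel.

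Genes whose proteins switch, carry or read Rab proteins were taken from a list of 105, of which 100 had regions and were tested. Of these 56 fell and 11 rose, with a median of -0.27, on the same gene background of 36.1% lower and 20.5% higher. Among 31 GEFs 17 fell and 3 rose, among 23 GAPs 15 fell and 1 rose, among 7 GDP dissociation and prenylation factors 4 fell and none rose, and among 39 effectors and partners 20 fell and 7 rose. With the trend removed over genes 26 of the 100 were higher and 29 lower, and over regions 22 were higher and 16 lower, where all genes gave 24.2% and 22.8% over genes and 20.5% and 16.4% over regions. The largest fall was near Rilpl2, an effector of phosphorylated Rab8 and Rab10, which had 98.8 and 92.2 RPM in CuNZ@Gel, against 185 and 187 RPM in Gel, and fell by 0.96 ± 0.056 log2 units (SE; limma adjusted p = 7.32e-11). Mon1b, a subunit of the exchange factor that loads Rab7, had 84.3 and 72.4 RPM in CuNZ@Gel, against 143 and 138 RPM in Gel, and fell by 0.84 ± 0.069 log2 units (SE; limma adjusted p = 5.21e-09). Dennd4a, an exchange factor for Rab10, had 141 and 133 RPM in CuNZ@Gel, against 245 and 231 RPM in Gel, and fell by 0.79 ± 0.051 log2 units (SE; limma adjusted p = 2.49e-10). In all 3 the CuNZ@Gel values lay below the Gel values. With the trend removed over regions they were -0.60 for Rilpl2 and -0.19 for Dennd4a, both called, and -0.082 for Mon1b, not called. Leaving out Gel replicate 1 or Gel replicate 2 left 7 and 6 pathway rises in place of 11.

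Rilpl1, the paralogue of Rilpl2 with the same partners, went the other way: it had 30.1 and 31.4 RPM in CuNZ@Gel, against 20.6 and 16.2 RPM in Gel, and rose by 0.72 ± 0.12 log2 units (SE; limma adjusted p = 5.70e-05). It was 0.82 and 0.68 with the trend removed over genes and over regions, both called. Sytl1, a Rab27 effector of granule docking, had 2.18 and 0.711 RPM in CuNZ@Gel, against 0.175 and 0.186 RPM in Gel, and rose by 0.98 ± 0.37 log2 units (SE; limma adjusted p = 0.0283). Bicd1, which links Rab6 vesicles to dynein, had 4.97 and 6.75 RPM in CuNZ@Gel, against 4.03 and 2.79 RPM in Gel, and rose by 0.64 ± 0.23 log2 units (SE; limma adjusted p = 0.0238). Sytl1 and Bicd1 are low, and neither was called with the trend removed. Sytl1 passed the filter on low reads only through the CuNZ@Gel libraries, where it is higher, so its call is no support for a rise. The Sytl1 call was lost without CuNZ@Gel replicate 1 (0.54), without Gel replicate 1 (0.98) and without Gel replicate 2 (0.99), and the Bicd1 call without CuNZ@Gel replicate 2 (0.45) and without Gel replicate 2 (0.44). On the background scale Bicd1 and Rilpl1 were -0.21 and -0.30, neither called.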

How the data were processed

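Open chromatin was profiled in 4 ATAC-seq libraries of RAW264.7 cells. The submitters' processing notes list MACS2 2.2.8, Picard 2.27.5, SAMtools 1.17, Bowtie2 2.3.4.3, fastp 0.23.1 and the mouse build GRCm39, with no role or order. The authors' deposited tables give log2 values, a table per library, of 80929 regions named by nearest gene. Read as log2(RPM + 1), 100% of low values (up to 40 reads) came within 0.1 of a whole number of reads in each library, which gave reads and scaling factors; that reading comes from the values. A peak list was also deposited by the authors for every library, with a score, a fold enrichment (a ratio) and −log10 values of its p-value and q-value; peaks were called on each library alone. Merging these lists with bedtools 2.31.1 gave 80929 regions in the tables' order, hence coordinates, counted from 1.

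Gene values, log2(summed RPM + 1), and region values were compared by limma 3.58.1 in R 4.3.3 with an intensity trend, two-sided, with Benjamini-Hochberg adjustment over 25900 genes or 77014 regions and a threshold of 0.05. Features needed 15 reads in all and, in 2 or more libraries, the equivalent of 10 reads at the median depth, which is 0.71 per 1000000 reads in regions. Changes are CuNZ@Gel minus Gel and understate those of low values. The level trend was removed by cyclic loess over genes, or over regions before summing (an option added after seeing the data). Other alternatives were totals, median of ratios, background pileup, filters, voom on recovered reads, a pseudocount of 0.25, the replicate number as a block, leaving out each library, narrower role lists, the strongest region per gene and stricter peaks. The fit was tested on simulated data. Reads in regions give the depth, which limits low genes, and counting intervals cover counting error only. Rows with no gene name (4) were left out.

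The members and the role, pathway and marker lists were chosen with earlier results of these data known. The genes named are 15 members named in any case, of which Rab6a is not analysed here, the 3 largest called rises and falls of each role list and of the pathway list, and those of the 3 regions with the largest called rises and falls. Any other gene, and the choice of promoters, followed a look at the values. Promoter sequences are RefSeq's (GRCm38.p6), and no coordinates were converted between builds.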

Additional observations from a re-analysis of the deposited data

How the results depend on the processing

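Directions are tied to the scaling. With the level trend removed over genes, the counts called higher were 5 for endosomal and 26 for pathway genes. The counts called lower were 16 for all members, 6 for endosomal, 6 for secretory, 2 for lysosome-related and 29 for pathway genes. Median changes there were -0.085 for all members, -0.10 for endosomal, 0.0090 for secretory, -0.085 for lysosome-related and -0.088 for other. For single regions, with the trend removed from region values, 19 Rab regions were lower, where 13.8% of all regions were. With it removed over regions (an alternative chosen after seeing the data), the counts called higher were 4 for endosomal, 2 for other, 22 for pathway genes, and the counts called lower were 4 for all members, 1 for endosomal, 1 for secretory, 2 for lysosome-related, 0 for other, 16 for pathway genes, and median changes were 0.017 for all members, 0.059 for endosomal, -0.018 for secretory, 0.029 for lysosome-related, 0.085 for other. With totals of reads in regions, the counts called higher were 14 for all members, 2 for other, 26 for pathway genes, and the counts called lower were 15 for all members, 5 for endosomal, 2 for lysosome-related, 1 for other, 27 for pathway genes, 26 for regions, and median changes were 0.024 for all members, 0.012 for endosomal, -0.060 for secretory, 0.13 for lysosome-related, 0.13 for other. With median-of-ratios factors 11 members were higher and 20 lower. Of all 25900 genes 6651 were higher and 7239 lower there, with a median of 0.010. The counts called higher were 2 for other and 18 for pathway genes, and the counts called lower 5 for endosomal and 3 for lysosome-related. Median changes were -0.13 for all members, -0.14 for endosomal, -0.22 for secretory, -0.029 for lysosome-related and -0.017 for other. On the background pileup, the counts called higher were 0 for all members, 0 for endosomal, 0 for secretory, 0 for lysosome-related, 0 for other, 0 for pathway genes, 8 for regions, and the counts called lower were 46 for all members, 16 for secretory, 11 for lysosome-related, 6 for other, 92 for pathway genes, 110 for regions, and median changes were -1.28 for all members, -1.31 for endosomal, -1.39 for secretory, -1.18 for lysosome-related, -1.14 for other. With the stricter filter, the counts called higher were 1 for lysosome-related, 24 for regions, and median changes were -0.41 for secretory. With no filter, the counts called higher were 1 for lysosome-related. With voom, the counts called higher were 1 for endosomal. With the narrower lists, the counts called higher were 1 for lysosome-related, and median changes were -0.20 for secretory, -0.21 for lysosome-related. With peaks of −log10 q of at least 5, regions were 1 with peaks in both CuNZ@Gel libraries only and 15 with peaks in both Gel libraries only. These were 0.575% and 8.62% of Rab regions, against 1.65% and 12.0% of all regions. Called changes of genes and regions with values in the text turned sign as follows. With the trend removed over genes they were Rab10 (0.075), Rab20 (0.26), Rab31 (0.30), Rab5c (0.15), Rab7b (0.35) and Rab8b (0.15). Over regions they were Rab10 (0.049), Rab1a (0.0053), Rab20 (0.28), Rab31 (0.13), Rab40c (0.089), Rab4b (0.059), Rab5c (0.13), Rab7b (0.45) and Rab9 (0.029). Of single regions, with the trend removed from region values, they were the strongest Rab40c region (0.037) and the strongest Rab39 region (0.044). With totals they were Rab20 (0.13), Rab31 (0.11), Rab5c (0.024) and Rab7b (0.16), and with median-of-ratios factors Rab7b (0.0068). On the background pileup they were Bicd1 (-0.21), Rab17 (-0.80), Rab23 (-0.57), Rab2a (-0.77), Rab38 (-0.35), Rab3b (-0.70), Rilpl1 (-0.30) and the second Rab15 region (-0.37). In the strongest region it was Rab2a (-0.62). Leaving out each library in turn, counts called higher ranged over 2 to 8 for all members, 1 to 2 for endosomal members, 0 to 3 for secretory members, 0 to 2 for lysosome-related members, 0 to 1 for other members, 6 to 11 for pathway genes, 23 to 34 for regions. Counts called lower ranged over 21 to 26 for all members, 6 to 10 for endosomal members, 10 to 10 for secretory members, 3 to 5 for lysosome-related members, 2 to 2 for other members, 51 to 57 for pathway genes, 33 to 42 for regions. Median changes ranged over -0.31 to -0.21 for all members, -0.34 to -0.15 for endosomal, -0.37 to -0.32 for secretory, -0.20 to -0.14 for lysosome-related, -0.21 to -0.13 for other. The cause of these differences was not tested. With 1 library left in a group, it is assumed to vary like the other group. Voom and the pseudocount apply to gene values only, and the half-peak overlap gave the same regions, since every peak lies within its region. Low genes such as Rab3c, Rab27b and Sytl1 are limited by depth.

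Whether the replicate numbers pair the libraries is not known. Deviations of same-numbered libraries from their group means correlated at 0.0429 over 25900 genes, which cannot exclude a pairing of small effect. With the number as a replicate block 9 members were higher and 29 lower, and of the genes and regions with values in the text only the Rab39 sum (-0.17) changed its call, to lower.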
